A study of Mus musculus with 8 samples.

Results

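Accessible chromatin was examined at 7 genes of granule cell migration in granule neuron progenitors (GNPs) isolated from mouse cerebella at postnatal day 7. The genes were the astrotactins Astn1 and Astn2, the chemokine receptor Cxcr4 and its ligand Cxcl12, the microtubule genes Dcx and Dclk1, and Pafah1b1. Every peak that overlapped the gene body or the 20 kb on either side by at least 1 bp was taken, in mm10 coordinates with the GENCODE release M21 annotation. This gave 179 of the 152984 WT peaks, 135 of the 106974 het peaks and 207 of the 174407 mutant peaks. Peaks of the 3 lists with fewer than 300 bp between them were joined into regions, and 207 of all 190582 regions lay at the 7 genes.

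The peaks came from ATAC-seq, in which the Tn5 transposase cuts and tags open DNA, in 3 libraries labelled Chd7 wild type, 3 labelled Chd7 mutant and 2 labelled Chd7 het. Chd7 encodes an ATP-dependent chromatin remodeller. In the study's methods the WT animals carried the floxed allele without Cre (Chd7 f/f), the het animals were Atoh1-Cre::Chd7 f/+ and the mutants Atoh1-Cre::Chd7 f/f, all untreated. The labels give the strain as C56Bl6/J, whereas the methods name a C57BL/6N background. The Atoh1 promoter drives Cre in the granule lineage, the authors regarded its recombination as probably less efficient in the posterior lobe, and GNPs were isolated from the dissociated tissue by a Percoll gradient, so that other cells and cells that escaped Cre can remain. WT and mutant replicates were described as technical. Each list was called on the pooled libraries of its group, so no value below has a replicate error, no difference could be tested against the spread between libraries, and no p-value is given.

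Filtering left 50394313 tags in the WT pool, 51030229 in the mutant pool and 30923002 in the het pool. The het list was made with another aligner and with reads extended to 200 bp against a modelled 90 bp in WT and 88 bp in mutant, and the mutant tags were shorter, 76 bp against 107 bp. Genotype and processing cannot be told apart in any comparison with het. Between WT and mutant, genotype cannot be told apart from tag length. The WT and mutant lists also differed in start peaks of Y genes, given with Dcx below. Peak strength is given as pileup, the number of extended tags stacked at the summit, and as within-list rank, meaning how many percent of the list's peaks had an equal or lower -log10 q. Of 8 GNP marker genes, including Atoh1, Pax6 and Barhl1, all 8 had a start peak in each list, with a median rank of 82.0 for WT, 79.99 for het and 86.1 for mutant. Start peaks were also present at 5 of 5 glial markers (median rank 57.5 in WT and 65.5 in mutant), at 4 of 4 meningeal and pericyte markers (74.8 and 79.5), at 3 of 4 Purkinje markers (92.9 and 93.4; Pcp2 had none) and at 4 of 4 endothelial markers (53.0 and 55.1), at 3 of 4 oligodendrocyte markers (74.5 and 70.5; Sox10 had none in any list) and at 3 of 3 interneuron markers (68.0 and 74.3). Of 4 microglial markers, Cx3cr1 and Aif1 had no start peak in any list, Csf1r had one in WT alone, and P2ry12 had one in each list, with ranks of 30.6 (WT), 55.1 (het) and 77.6 (mutant). The part of these cells in the values below was not tested.

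GNPs multiply in the external granule layer at the cerebellar surface, where Cxcl12 released by the overlying meninges acts on the receptor Cxcr4 and holds the cells in place. After leaving the cell cycle they extend processes and move inward along the fibres of Bergmann glia to the internal granule layer. Astn1 is an adhesion protein of the neuron-glia junction, and Astn2 regulates how much Astn1 stands at the cell surface. Dcx and Dclk1 bind and stabilise microtubules through doublecortin domains, and Pafah1b1 encodes Lis1, the dynein regulator that couples the nucleus to the advancing centrosome.

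Of the intronic and intergenic regions, 8 picked after their values were seen are shown here. Each is given as 300 bases of the mm10 plus strand about the WT summit. Capitals mark the E-boxes CAGATG and CAGCTG, the core letters bound by proneural bHLH factors and their partners, and the nuclear factor I half-site TTGGCA, on either strand. The strongest region of a member away from any gene start is given together with 3 regions that were lower in mutant and 4 that were higher. Lower and higher mean 1.5-fold or more in pileup. With fold enrichment in place of pileup, the lower windows of Astn2 and Dclk1 and the higher windows of Cxcr4 and Dcx fell under 1.5-fold. The Astn2 windows lie at chr4:66215398-66215697 (tallest), chr4:66123101-66123400 (lower) and chr4:66370779-66371078 (higher). The other windows are chr1:158641234-158641533 (Astn1, lower), chr3:55550939-55551238 (downstream of Dclk1, lower), chr3:55397743-55398042 (Dclk1, higher), chr1:128595644-128595943 (upstream of Cxcr4, higher) and chrX:143906712-143907011 (Dcx, higher).
Astn2 tallest: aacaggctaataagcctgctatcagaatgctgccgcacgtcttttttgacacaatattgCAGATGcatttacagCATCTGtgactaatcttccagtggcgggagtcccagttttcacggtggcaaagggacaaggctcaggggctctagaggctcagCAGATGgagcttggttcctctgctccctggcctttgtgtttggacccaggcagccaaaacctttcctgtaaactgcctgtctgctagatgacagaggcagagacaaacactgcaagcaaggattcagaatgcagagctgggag
Astn2 lower: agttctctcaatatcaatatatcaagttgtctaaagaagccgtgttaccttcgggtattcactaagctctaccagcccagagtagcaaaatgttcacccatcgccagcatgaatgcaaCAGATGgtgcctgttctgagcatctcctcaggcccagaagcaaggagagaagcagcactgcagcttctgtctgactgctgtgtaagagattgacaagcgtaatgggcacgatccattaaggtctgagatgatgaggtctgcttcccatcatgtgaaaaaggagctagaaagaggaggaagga
Astn1 lower: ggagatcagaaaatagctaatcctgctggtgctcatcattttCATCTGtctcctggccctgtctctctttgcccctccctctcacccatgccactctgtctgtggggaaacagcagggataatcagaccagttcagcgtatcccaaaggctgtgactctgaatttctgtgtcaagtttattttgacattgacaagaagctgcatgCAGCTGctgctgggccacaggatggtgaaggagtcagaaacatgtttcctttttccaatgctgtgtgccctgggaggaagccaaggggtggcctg
Dclk1 lower: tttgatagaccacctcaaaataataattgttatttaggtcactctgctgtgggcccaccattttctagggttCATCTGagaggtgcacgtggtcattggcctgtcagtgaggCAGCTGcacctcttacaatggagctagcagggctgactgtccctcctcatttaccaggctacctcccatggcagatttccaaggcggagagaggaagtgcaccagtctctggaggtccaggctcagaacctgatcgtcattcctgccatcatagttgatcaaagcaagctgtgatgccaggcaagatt
Dclk1 higher: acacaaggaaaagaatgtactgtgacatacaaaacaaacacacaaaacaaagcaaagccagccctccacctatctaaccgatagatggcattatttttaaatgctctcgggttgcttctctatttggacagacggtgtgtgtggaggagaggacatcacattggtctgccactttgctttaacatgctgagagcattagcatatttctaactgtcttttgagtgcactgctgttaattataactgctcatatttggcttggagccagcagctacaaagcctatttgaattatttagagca
Cxcr4 higher: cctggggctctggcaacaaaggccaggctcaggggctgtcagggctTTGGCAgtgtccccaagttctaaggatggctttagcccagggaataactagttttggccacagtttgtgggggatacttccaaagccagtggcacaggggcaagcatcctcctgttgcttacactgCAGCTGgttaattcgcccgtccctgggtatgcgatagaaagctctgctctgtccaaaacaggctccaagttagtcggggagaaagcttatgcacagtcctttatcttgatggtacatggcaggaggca
Dcx higher: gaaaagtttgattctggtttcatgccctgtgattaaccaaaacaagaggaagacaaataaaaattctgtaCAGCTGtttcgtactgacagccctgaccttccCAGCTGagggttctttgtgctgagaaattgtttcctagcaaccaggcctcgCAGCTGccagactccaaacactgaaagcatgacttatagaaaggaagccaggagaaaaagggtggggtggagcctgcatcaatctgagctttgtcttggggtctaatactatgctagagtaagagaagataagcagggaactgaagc
Astn2 higher: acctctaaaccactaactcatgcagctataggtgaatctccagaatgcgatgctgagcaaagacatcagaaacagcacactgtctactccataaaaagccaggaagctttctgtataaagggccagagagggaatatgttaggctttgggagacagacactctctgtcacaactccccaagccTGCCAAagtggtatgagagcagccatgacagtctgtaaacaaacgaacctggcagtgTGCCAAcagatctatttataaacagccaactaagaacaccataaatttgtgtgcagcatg

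All 7 genes had accessible chromatin at a start site in WT GNPs. The main start of Dclk1 was the strongest, with a WT pileup of 72 beside 124 for het and 81 for mutant, and ranks of 96.4, 97.8 and 98.1. The Pafah1b1 start followed at 64, 88 and 66 (ranks 94.3, 91.4 and 95.4), then Astn1, Dcx, Cxcr4, Cxcl12 and Astn2 in WT. The het order was the same for the 6 genes it covers, and in mutant Astn2 and Cxcl12 stood level at ranks of 65.4 and 65.3. Het pileups are on another scale because of the longer extension.

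From here on, 3 pileups given in a row are those of WT, het and mutant. The Astn1 start had pileups of 58, 70 and 58, a mutant to WT ratio of 0.99 after division by each list's tags (95% exact interval for counting error 0.67 to 1.45). The Dcx start stood at 44, 59 and 54, a ratio of 1.21 (0.80 to 1.85). The Cxcr4 start stood at 48, 60 and 47 (0.97, 0.63 to 1.48) and the Cxcl12 start at 28, 34 and 27 (0.95, 0.54 to 1.68). The ligand gene was the weaker of the chemokine pair in all 3 lists, with a start rank of 66.7 against 76.5 for the receptor in WT. Pileups are overlapping tags from PCR libraries, so these intervals cover counting error only.

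At the Astn2 start a single broad region ran from 66402527 to 66404678 on chromosome 4. In WT it held 3 peaks, of which the peak over the start had a pileup of 40 and a rank of 59.7, the lowest of the 7 starts, and in mutant 44 and 65.4. The het list had 1 peak of 2064 bp there, with its summit 1.76 kb inside the gene. A taller region stood 3.02 kb inside the gene, at 65, 97 and 65.

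**Figure D1:**
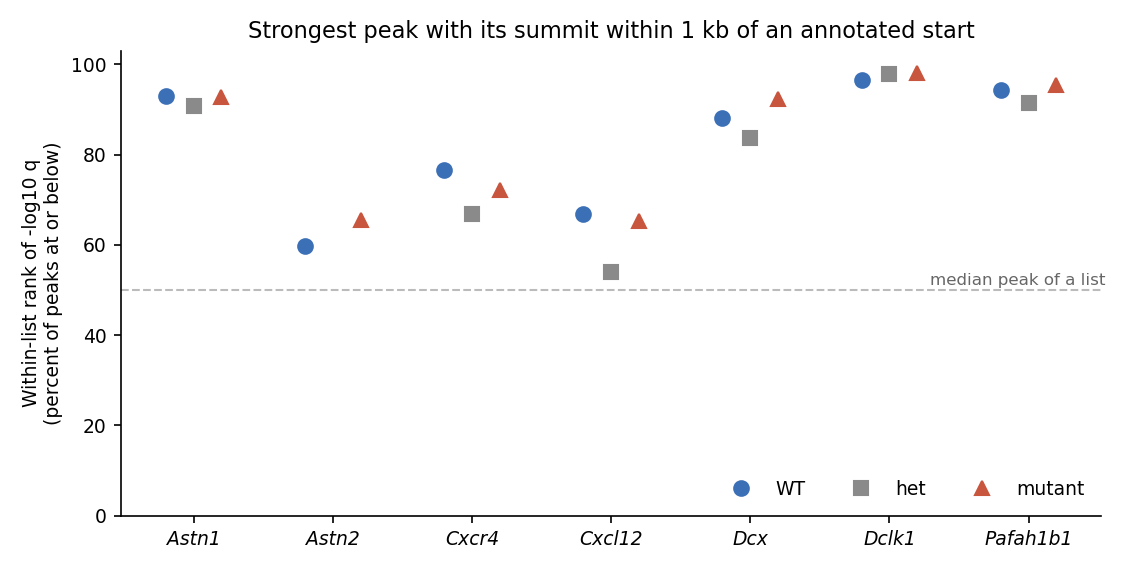
Within-list rank of the strongest peak whose summit lay within 1 kb of an annotated start of each gene (y axis, percent of the list's peaks at or below its -log10 q; circles WT, squares het, triangles mutant). Dclk1, Pafah1b1 and Astn1 lie above 90 in every list, and Cxcl12 and Astn2 near the dashed line of the median peak. The Astn1 het point is an internal start 148 kb downstream (rank 90.7), while the main Astn1 start had a het rank of 86.0. Astn2 has no het point because the het peak over its start has its summit 1.76 kb inside the gene.

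Of 10 regions at an annotated start of a member with a peak in WT and mutant, 0 were 1.5-fold lower and 0 were 1.5-fold higher in mutant, and their median log2 ratio of mutant to WT pileup was 0.00. The background share at all 19950 regions within 1 kb of any gene start was 1.07% lower and 3.09% higher. Start sites inside the genes were included, and the broad Astn2 region was not, since its tallest peak lay over 1 kb inside the gene. Dclk1 had an internal start at 55461605 to 55462232 on chromosome 3, where annotated coding transcripts begin 219 kb downstream of the main start, at 47, 75 and 58 (ratio 1.22, 0.82 to 1.83). Astn1 had an internal non-coding start 148 kb downstream, at 55, 80 and 42 (0.75, 0.49 to 1.15), the lowest ratio of the 10.

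How many peaks were found in the list of only one genotype was compared next. Of the 179 WT peaks, 33 had no overlapping mutant peak (18.4%, Wilson 95% interval 13.4 to 24.8%), against 22.8% of the whole WT list. Of the 207 mutant peaks, 57 had no overlapping WT peak (27.5%, 21.9 to 34.0%), against 30.7% of the whole mutant list. Both shares of the 7 genes lay slightly below their background with intervals that included it. Without Astn2 the WT share was 12.5% (7.45 to 20.2%). With the mutant list shortened to the length of the WT list the mutant share was 18.1% (13.1 to 24.4%) against 24.6% of that list. Both of these intervals left out the background, and both settings were added after the data were seen. A share was also expected from all peaks of the list in the same deciles of -log10 q. It was 18.5% for WT, 27.8% for mutant and 14.3% for WT without Astn2, each inside the interval of the observed share. For the shortened mutant list no such share was calculated.

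The peaks without a partner were weak ones. The strong peaks, those whose -log10 q reached 10, numbered 76 in WT and 0 of them were without a mutant partner (upper limit of the Wilson interval 4.81%), and 87 in mutant, of which 0 were without a WT partner (4.23%), against 0.456% and 1.21% of the strong peaks of the whole lists. In the weakest 30% of the WT list, 26 of 44 peaks at the 7 genes had no mutant partner (59.1%, 44.4 to 72.3%), against 54.99% for all peaks of that class. For mutant peaks of the same class the count was 42 of 57 (73.7%, 61.0 to 83.3%) against 66.8%. The strongest unshared WT peak at any member had a -log10 q of 8.42 and the strongest unshared mutant peak 9.55.

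The genes differed in their counts, but each count was small. Astn2 had 75 WT and 86 mutant peaks, of which 20 (26.7%, 18.0 to 37.6%) and 29 (33.7%, 24.6 to 44.2%) had no partner. Astn1 had 6 of 36 WT peaks and 7 of 38 mutant peaks without a partner, and Dclk1 6 of 40 and 13 of 47. Cxcr4 went from 5 WT peaks, 0 of them unshared, to 10 mutant peaks, 5 of them unshared (interval 23.7 to 76.3%). Dcx had 0 of 12 WT peaks without a mutant peak and 2 of 13 in the other direction, Cxcl12 1 of 9 and 1 of 11, and Pafah1b1 0 of 2 and 0 of 2.

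**Figure D2:**
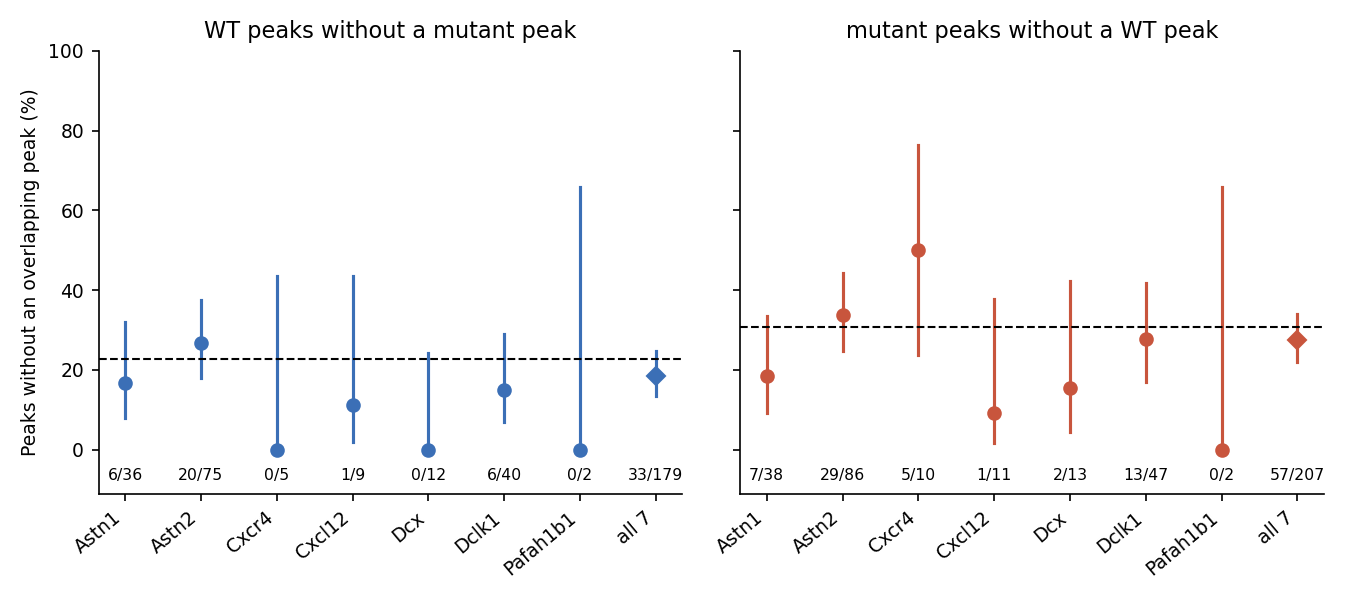
Share of WT peaks without an overlapping mutant peak (left) and of mutant peaks without an overlapping WT peak (right) at each gene, in percent, with Wilson 95% intervals for counting error and the counts under each point. Dashed lines mark the whole lists at 22.8% and 30.7%, and the intervals of all 7 genes span them.

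The strongest peaks of only 1 of the WT and mutant lists were modest. In Astn2 an intronic mutant peak at 66261323 to 66261565, 143 kb from the start, had a pileup of 17 and a rank of 62.1, with no WT or het peak. An intronic WT peak of Astn2 at 65718087 to 65718274 had 14 tags and a rank of 53.0, with no mutant or het peak. In Dclk1 an intergenic WT peak at 55540532 to 55540713, past the gene end, had 31 tags and a rank of 57.2 and 2 mutant peaks within 300 bp of it but none that overlapped. A Dclk1 mutant peak at 55352521 to 55352721, 1.49 kb upstream of an internal start, had 30 tags and a rank of 51.7, and the het list had a peak there of 24. In Cxcr4 the strongest mutant peak without a WT peak, at 128578551 to 128578859, lay 13.7 kb downstream of the start with 16 tags. The single unshared WT peak of Cxcl12 lay at the start of the neighbouring transcript D030044L04Rik with 17 tags and had a mutant peak within 300 bp. At Astn1 the internal start at 158657086 to 158657290 had 14 tags in WT and 17 in het and no mutant peak. The reverse held at an internal Dclk1 start, at 55528132 to 55528236, with 20 tags in mutant and no WT or het peak.

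Peak height was compared in the 131 regions with a WT and a mutant peak. Their median log2 ratio of mutant to WT pileup, each divided by its list's tags, was 0.15 (quartiles -0.08 and 0.34), beside 0.07 (-0.14 and 0.29) over all 111314 such regions. Of the 131, 80 lay above the median of all regions. Regions 1.5-fold or more lower in mutant numbered 6 (4.58%, background 3.61%), and those 1.5-fold or more higher numbered 13 (9.92%, background 7.48%). These shares were close to the background. After centring on the median of all regions 10 were lower and 10 higher, beside 5.10% and 5.48% of all regions. Of the 19 regions past 1.5-fold, 7 fell under it after centring or with fold enrichment in place of pileup, namely 2 at Cxcr4 and 1 each at Astn1, Astn2, Dcx, Dclk1 and Pafah1b1.

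**Figure D3:**
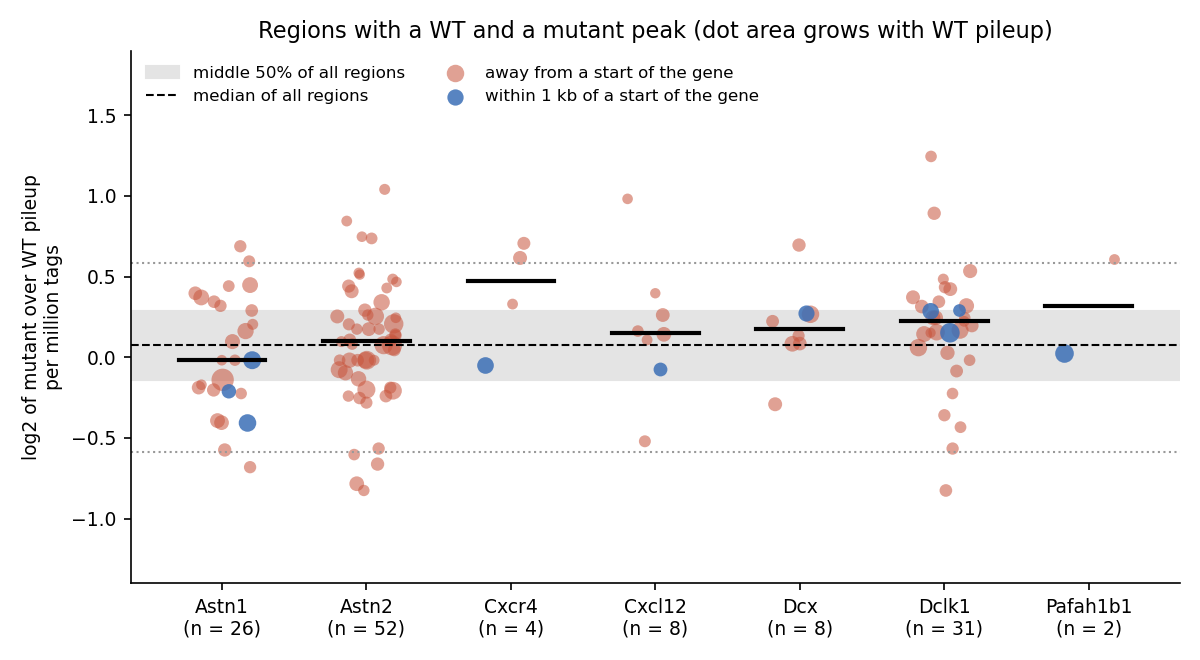
Log2 ratio of mutant to WT pileup after division by each list's tags for each of the 131 regions, by gene (dot area grows with WT pileup, black bars are gene medians, dotted lines mark 1.5-fold). The grey band holds the middle 50% of all 111314 regions and the dashed line their median of 0.07; the Dclk1 median lies at 0.22 and the Astn1 median at -0.02, and regions within 1 kb of a start of the member itself (blue) stay inside the dotted lines.

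Dclk1 carried the region with the largest ratio. This intronic region at 55397796 to 55398176, 156 kb from the main start, had pileups of 15, 17 and 36. The ratio was 2.37 (1.27 to 4.66), and its ranks were 53.1, 42.9 and 89.3. The sequence printed above as Dclk1 higher held none of the 3 motifs. Near the end of the gene, the region at 55524865 to 55525153 had 25, 42 and 47 tags, a ratio of 1.86 (1.12 to 3.15). These were the 2 of the 131 regions whose counting interval left out 1, with no adjustment for the number examined. The same count was not made over all regions, so these 2 have no background and do not set Dclk1 apart.

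Across Dclk1 as a whole, 24 of 31 regions had a positive log2 ratio (77.4%, beside 57.2% of all regions) and the median was 0.22. The other 7 lay below 0, and 1 of them was 1.5-fold lower. It stood 12.02 kb past the annotated gene end, at 55551007 to 55551227, with 21 tags in WT, no het peak and 12 in mutant (0.56, 0.25 to 1.20). With fold enrichment its log2 ratio was -0.54, under 1.5-fold. Of the 31 het peaks of Dclk1, 0 were without a mutant peak and 1 was without a WT peak. The whole het list had 10.7% and 13.3% without. From deciles of -log10 q, 2.23 and 2.73 were expected at Dclk1. The tallest WT region away from a main or internal start, 6.26 kb inside the gene, was nearly level at 54, 63 and 57.

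Astn1 had a median of -0.02 and 12 of 26 regions above 0, with 1 region 1.5-fold lower and 2 higher. The lowest ratio was in an intronic region at 158641149 to 158641704 with pileups of 19, 17 and 12 (0.62, 0.28 to 1.35). The highest was at 158527293 to 158527544 with 19, 13 and 31 (1.61, 0.88 to 3.02). The tallest region away from a start, 127 kb inside the gene, had 45, 65 and 51. The tallest region in the whole window, at 99, 154 and 91, lay 5.88 kb upstream of Astn1 at the start of the neighbouring gene Brinp2, so it cannot be assigned to Astn1.

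Astn2, at 1024 kb the longest member, held 52 of the 131 regions, with a median of 0.10, 4 regions lower and 4 higher. Its tallest region away from a start, intronic at 66215120 to 66215940 and 189 kb from the start, had 76, 119 and 81 tags and ranks of 98.8, 98.6 and 99.2. The tallest of the 4 lower regions, at 66122847 to 66123403, had 34, 29 and 20 (0.58, 0.32 to 1.04), with ranks of 85.4, 65.9 and 67.6. With fold enrichment its log2 ratio was -0.53, under 1.5-fold. The lowest ratio, at 65699888 to 65700378, came from 14, 12 and 8 tags (0.56, 0.21 to 1.44). The largest, at 66370116 to 66371141 and 33.7 kb from the start, came from 12, 16 and 25 (2.06, 0.996 to 4.49). The gene Trim32 lies inside Astn2, and the region at its start, at 71, 106 and 83, is not evidence on Astn2.

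**Figure D4:**
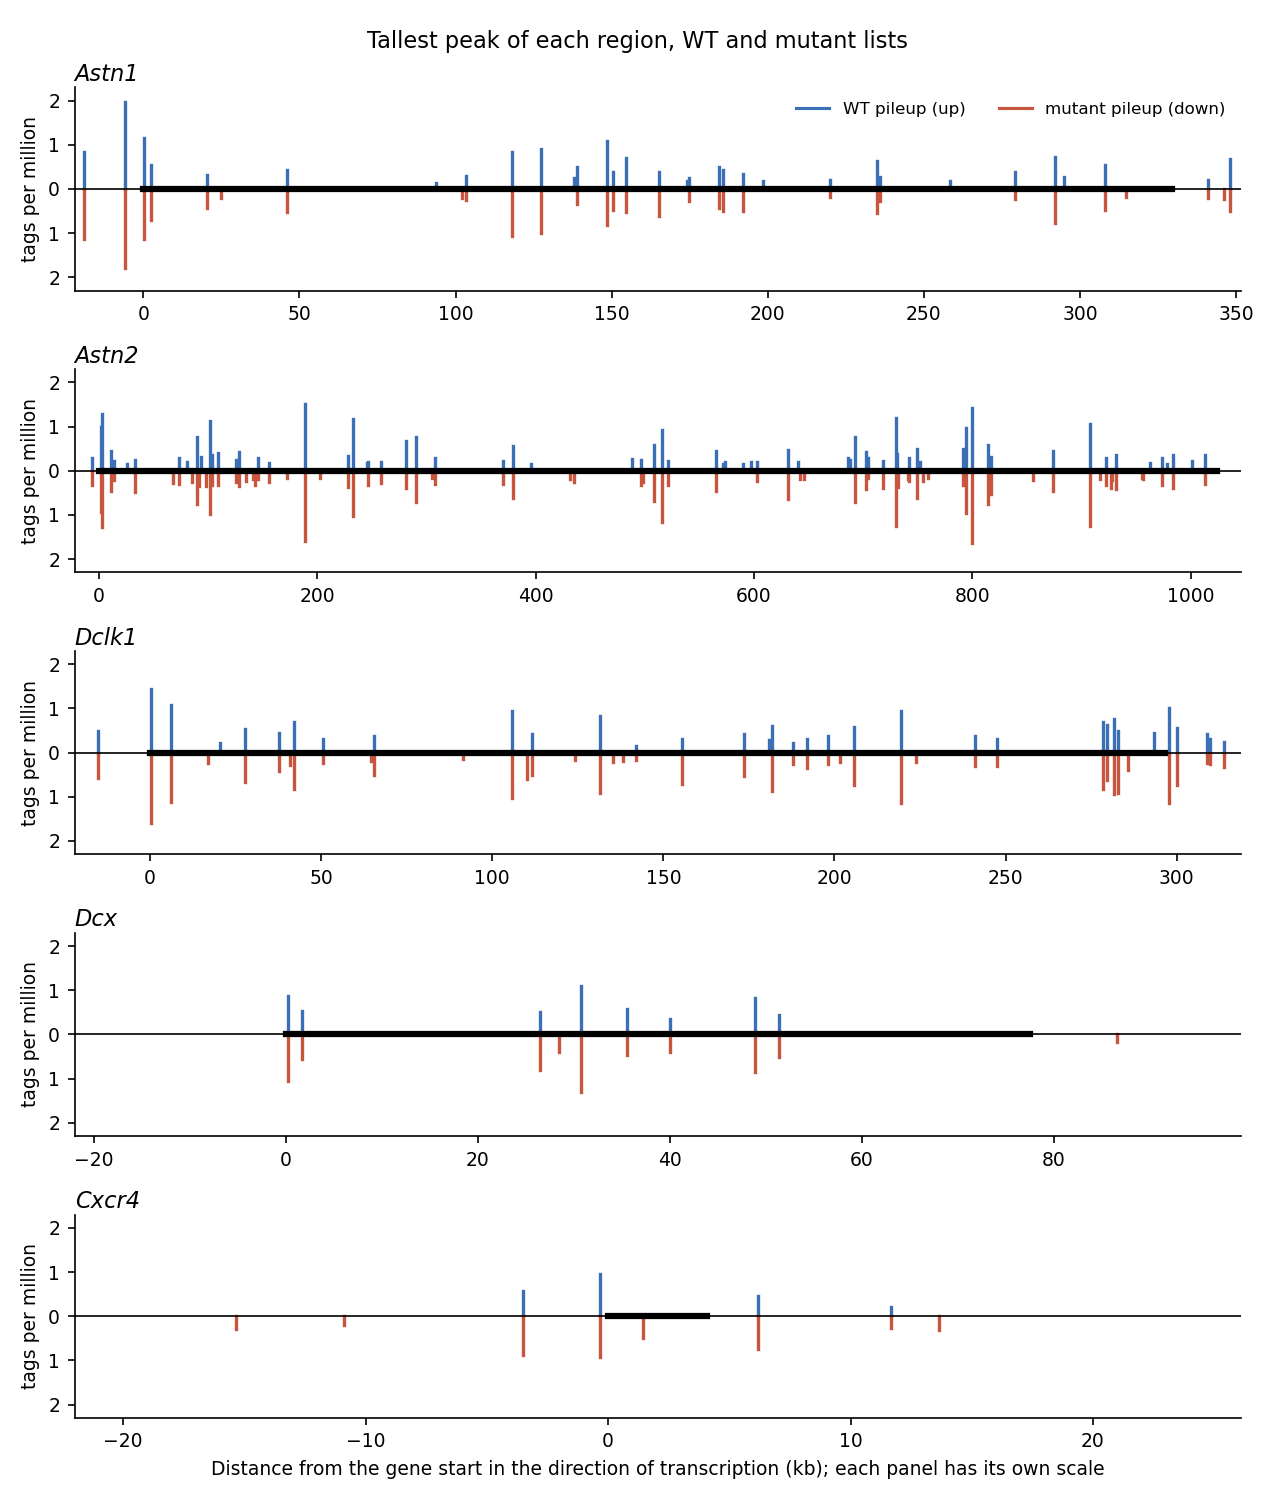
Tallest peak of each region along Astn1, Astn2, Dclk1, Dcx and Cxcr4, in depth-scaled pileup (WT upward in blue, mutant downward in red) against the distance from the gene start in kb. The thick line is the gene body; the 2 lists mirror each other at tall peaks and differ mainly at short ones, and 4 regions around Cxcr4 with a mutant but no WT peak point down alone.

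The window of Cxcr4 had 4 regions with a peak in both lists, of which 3 had a log2 ratio above 0 and 2 were 1.5-fold higher in mutant, with a median of 0.47. The region 3.50 kb upstream had 29, 49 and 45 tags (1.53, 0.94 to 2.53), and the region 6.19 kb downstream of the start, past the gene end, had 23, 30 and 38 (1.63, 0.95 to 2.87). The start between them was level, as given above. Their ranks went from 44.6 to 74.6 and from 61.6 to 80.1 between WT and mutant. With fold enrichment in place of pileup both stayed above 1 but under 1.5-fold, with log2 ratios of 0.54 and 0.35.

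At Cxcl12, 8 regions had peaks in both lists, with a median of 0.15. The tallest stood 1.51 kb upstream of the start at 34, 43 and 38. A region in an exon 7.97 kb from the start, at 117176457 to 117176705, had 10 tags in WT, no het peak and 20 in mutant (1.98, 0.88 to 4.72). Cxcl12 is made chiefly outside the granule lineage, by meningeal cells. The part of such cells in the Cxcl12 values was not tested.

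Dcx, on the X chromosome, had 7 of 8 regions above 0 and a median of 0.18. Its tallest region was intronic, at 143902267 to 143902848 and 30.8 kb from the start, with 55, 78 and 67 tags (1.20, 0.83 to 1.75). The intronic region at 143906723 to 143907077 had 25, 46 and 41 (1.62, 0.96 to 2.78). With fold enrichment its log2 ratio was 0.50, under 1.5-fold. It holds 3 CAGCTG E-boxes, the most in any printed window with that motif. Over all 2608 X regions the median was 0.12, beside 0.07 on autosomes. Start peaks of the Y genes Ddx3y, Uty, Eif2s3y and Kdm5d were present in the WT list (4 of 4) and in neither the het nor the mutant list (0 of 4 each). The part of the sex of the pooled pups in the Dcx values, or in any other comparison of WT with mutant, was not tested.

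Pafah1b1 had the fewest regions. Beside its start it had 1 region, 10.5 kb upstream, with 11 tags in WT, no het peak and 17 in mutant (1.53, 0.67 to 3.60). This spacing of 2.20 WT peaks per 100 kb of window compares with 5.61 over the genome, while the other 6 genes ranged from 7.05 at Astn2 to 17.0 at Cxcl12.

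The het list was shorter at the 7 genes as elsewhere. Of 179 WT peaks, 51 had no het peak (28.5%, 22.4 to 35.5%), against 36.9% of the whole WT list. The share expected from deciles of -log10 q was 31.5%, inside the interval. Of 135 het peaks 14 had no WT peak (10.4%, 6.28 to 16.7%), against 13.3%. Regions in all 3 lists made up 107 of the 207 (51.7%, beside 45.7% of all regions). Regions in mutant alone numbered 38 (18.4%, beside 20.1%), in WT and mutant 24 (11.6%, beside 12.7%) and in WT alone 19 (9.18%, beside 13.3%). Those in het and mutant numbered 8 (3.86%, beside 3.03%), in WT and het 7 (3.38%, beside 1.66%) and in het alone 4 (1.93%, beside 3.52%). Of 15 regions in het and only 1 other list, 7 paired with WT and 8 with mutant, beside 3165 and 5775 over all regions. The het pileups named above cannot be read as middle values because their scale differs.

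E-boxes were counted by the direction of the difference. Away from gene starts, CAGATG was present in 52 of 116 regions of the 7 genes (44.8%), beside 39.2% of all 91362 regions. It was in 5 of the 6 regions that were 1.5-fold lower in mutant and in 0 of the 12 that were higher. Over all regions away from starts it was in 1952 of 3807 lower regions (51.3%) and in 2520 of 7711 higher regions (32.7%). CAGCTG was in 4 of the 6 lower and 4 of the 12 higher regions of the 7 genes, and over all regions in 29.3% and 30.1%. The nuclear factor I half-site was in 1 of 6 and 3 of 12, and over all regions in 32.1% and 32.9%. Windows were 300 bases and both strands were searched; TTGGCA can overlap an E-box by its last letters. These are matches of letters, compared after the values were seen, and they say nothing about which factor was bound. The 3 lower windows printed above, which are among the 6 regions, each hold CAGATG or its reverse CATCTG. The 4 higher windows, which are among the 12, hold none. The tallest Astn2 region holds 3 copies. However, the lower Astn2 window was printed for its WT pileup, the other lower windows for their ratio. The Astn2 region with the lowest ratio, at 65699888 to 65700378, was not printed and holds neither E-box. With windows about the mutant summit the counts for CAGATG were again 5 of 6 and 0 of 12. That repeat used the same regions, so it is not separate evidence.

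The median GC share of the 116 windows away from starts was 48.3%, beside 49.3% for all such regions. The GC box GGGCGG was in 4 of the 116 (3.45%), beside 7.78%.

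Other migration genes were measured in the same way. Of 20 further genes, which encode dynein and Lis1 partners such as Ndel1 and Dync1h1, Cdk5 and its activators, polarity proteins such as Pard3 and Pard6a, and adhesion proteins such as Jam3 and Cntn2, all 20 had a start peak in each list, with median ranks of 93.5 (WT), 89.0 (het) and 92.6 (mutant). Of their 229 WT peaks 40 had no mutant peak (17.5%, 13.1 to 22.9%) and of their 268 mutant peaks 71 had no WT peak (26.5%, 21.6 to 32.1%). Their 179 regions in both lists had a median of 0.08, with 3 lower (1.68%) and 17 higher (9.50%). The gene medians were above the background median in 11 and below it in 9, from 0.24 at Dync1i1, with 6 of 23 regions 1.5-fold higher, to -0.23 at Pafah1b2.

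The Reelin pathway genes Reln, Vldlr, Lrp8 and Dab1, which guide neuronal positioning, gave 130 regions with a median of 0.12, 5 lower (3.85%) and 12 higher (9.23%). Of their 165 WT peaks 28 had no mutant peak (17.0%, 12.01 to 23.4%), against 22.8% of the whole list. Of their 181 mutant peaks 42 had no WT peak (23.2%, 17.7 to 29.9%), against 30.7%, a background that this interval left out. The share expected from deciles of -log10 q was 26.0%, inside the interval. The pooled median was 0.15 for the 7 genes, 0.08 for the other migration genes and 0.12 for the Reelin genes, beside 0.07 over all regions. The shares of lower and higher regions in the 3 groups were between 1.68% and 9.92%. Over all regions these shares were 3.61% and 7.48%.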

How the data were processed

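Narrow peaks were deposited by the authors as 3 lists, each called on the pooled ATAC-seq libraries of a genotype with MACS2 2.1.0.20150731 at a q cutoff of 0.05, mm10, after Trim Galore 0.4.1 and Picard 1.139. Per the labels, WT and mutant reads were aligned with STAR 2.5.0b and het reads with Bowtie 1.0.0; per the file headers, het reads were shifted by -100 bp and extended to 200 bp. The study's methods describe Bowtie and the shift for all groups, which the WT and mutant headers do not show. The deposited pileup is a signal in tags, fold enrichment is the peak caller's ratio of pileup to local background, and -log10 q is the deposited significance of each peak. The authors' p-values were not used. All columns had a group (0 left out).

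Pileup was divided by the tags of its list, the tallest peak per list was taken in each region, and only regions with peaks in both lists gave ratios. A shared peak overlapped by 1 bp or more. Intervals for shares are Wilson and for pileup ratios exact binomial, both at 95%. The overlap code was tested on simulated peaks against bedtools 2.31.1; python 3.11.15, numpy 2.4.6, pandas 2.3.3 and scipy 1.17.1 were used. Genome sequence was GRCm38.p6 (RefSeq), the same assembly as mm10.

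Regions named were those at an annotated start, the tallest WT region away from a start, those with the lowest and highest ratio, and the strongest peak of only 1 list; the second Dclk1 region, the tallest lower Astn2 region and the sequences were chosen after their values were seen. The genes and gene lists were chosen with earlier results of these data known. Alternatives were another overlap rule, a q filter, the gene body alone, fold enrichment, centring, and other joining of peaks; lists of equal length and leaving out Astn2 were added after the data were seen.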

Additional observations from a re-analysis of the deposited data

How the results depend on the processing

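No paired analysis was possible because each list pools the libraries of its group, and for the same reason no replicate could be left out. No direction reversed. With a 50% reciprocal overlap, the shares without a partner were 29.1% (WT against mutant; all peaks 35.9%), 38.6% (mutant against WT; 43.8%) and 42.5% (WT against het; 49.9%). With a -log10 q of 5 or more in both lists they were 11.3%, 21.01% and 16.9% (all peaks 13.7%, 24.0% and 22.5%). At that setting 2 of 100 regions were 1.5-fold lower in mutant (all regions 2.46%), rather than 6 of 131 (all regions 3.61%). Centred on the median of all regions, the median log2 ratio was 0.078. Of 131 regions 10 were then lower and 10 higher (all regions 5.10% and 5.48%). With the mutant list shortened to the length of the WT list, 18.1% of mutant peaks had no WT peak (all peaks 24.6%). Without Astn2, 12.5% of WT peaks had no mutant peak (all peaks 22.8%, expected from deciles of -log10 q 14.3%) and 2 of 79 regions were lower (all regions 3.61%). The last 2 settings were chosen after the data were seen, and the cause of these shifts was not tested beyond each setting's own construction. Other summaries stayed within their interval or within 1.5 times the count in 29 of 41 recalculations. Among single regions, 7 of 19 ratios past 1.5-fold fell under it, 6 with fold enrichment and 3 with centring, with no change of direction. Depth limits short peaks most: 14 against 8 tags gave a ratio of 0.56 with an interval from 0.21 to 1.44.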
